A study of Mus musculus with 17 samples.

Results

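The transcripts described here are the RNAs of the mouse mitochondrial genome, in epithelial cells of the small intestine of young mice. All rows of the deposited TPM table whose symbol starts with mt- were taken, which gave 37 of 53278 rows: 13 protein-coding transcripts, 22 tRNAs and 2 rRNAs. TPM is a level per length of the gene, scaled so that all genes of a library add up to the same total. RNA came from sorted EpCAM+ CD45- Ter119- cells of Igha -/+ C57BL/6 mice, bred from a C57BL/6 and an IgA-/- parent and kept under specific pathogen free conditions. All pups thus carried 1 intact Igha allele, and the groups differed in the dam that nursed them, a C57BL/6 dam (B6 dam) or an Igha-/- dam (IgA-null dam), and in the day of life, 14, 24 or 42. There were 17 libraries in 6 groups of dam and day, 3 in each group but 2 for the B6 dam at day 24. The comparison of dams was made to ask what maternal IgA does to the developing epithelium. Shared litters and dams are not recorded, nor is it stated whether pups were nursed by their birth mother, so p-values measure only the spread between these samples. Mitochondrial DNA is inherited from the mother, so if the nursing dam was also the mother, the origin of the mitochondrial genome and the dam's IgA cannot be told apart. Strings that hold what look like dates are given with the samples. The dates are the same for both dams at day 42 but not at days 14 and 24, and they differ between most ages. Wherever they differ, the dates and the groups cannot be told apart. The strings also begin with F for every IgA-null dam library and with M for every B6 dam library, at each age. What these letters mark is not stated, and it cannot be told apart from the dam.

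The mitochondrial genome is a small circle in many copies per cell, copied and transcribed inside the organelle by proteins that the nucleus encodes. Each strand is transcribed as a long precursor, and the tRNAs that punctuate it are cut out to release the rRNAs and the mRNAs. Its protein-coding genes specify subunits of respiratory complexes I, III and IV and of ATP synthase, its rRNAs build the mitochondrial ribosome, and its tRNAs serve that ribosome alone. Absorptive enterocytes depend on oxidative metabolism, and nuclear and mitochondrial genes must together supply each complex except complex II.

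From TPM and gene lengths, 8477226 to 18305346 reads a library were recovered. These are partial sums, over genes with a known length and values that came out as whole reads. Gm23935, a short nuclear gene model, took 40.2% to 61.9% of TPM, and all RNA other than Gm23935 and the 37 mitochondrial transcripts took 10.3% to 30.9%. That remainder was highest in the 3 IgA-null dam libraries of day 14 (29.1%, 24.7% and 30.9%), lowest in those of day 24 (15.2%, 11.9% and 10.3%), and 15.9% to 19.9% in the other 11. Each tested comparison is therefore given as deposited and again rescaled between libraries, for short scaled, where TPM was divided by a size factor (median of ratios, 0.479 to 1.81). The labelled cell type was checked against its markers: the summed TPM of 8 epithelial genes was 1033 to 3909, Ptprc, the leukocyte antigen CD45, stayed at or below 0.806 TPM, and no fibroblast or endothelial marker passed the filter on low values. Markers of other cells that did pass were 4 of 12 leukocyte, 2 of 6 erythroid and 2 of 6 neuronal or glial genes. Csf1r, a macrophage receptor, reached 7.62 TPM and Hbb-bs, a beta globin, 24.26 TPM, and the erythroid sum was 36.3 TPM in IgA-null dam day 24 replicate 2 and at most 2.68 in the other 16 libraries. These are bulk cells, and fewer cells of a type and less RNA per cell cannot be told apart.

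The 2 rRNAs held nearly all of the mitochondrial signal in these libraries. How completely each class was captured from the cells was not measured, so proportions between classes are those of the libraries. Together they took 12.8% to 31.9% of TPM and 20.7% to 59.4% of the recovered reads, against 0.824% to 2.57% of TPM for the 13 protein-coding transcripts and 0.0643% to 0.177% for the 22 tRNAs. For each TPM of protein-coding transcripts a library held 11.7 to 16.9 TPM of rRNA, so this proportion varied far less than the amounts. The large rRNA, mt-Rnr2 (chromosome M, 1094 to 2675, plus strand, GRCm38), was at 1.16 to 1.55 times the TPM of the small rRNA, mt-Rnr1 (70 to 1024), in every library. As deposited, the highest library exceeded the lowest 3.11-fold for summed protein-coding TPM, 2.48-fold for rRNA and 2.75-fold for tRNA. After scaling these ranges were 6.71-, 6.95- and 4.80-fold, and for each class the lowest library was IgA-null dam day 14 replicate 2 and the highest IgA-null dam day 24 replicate 3.

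**Figure D1:**
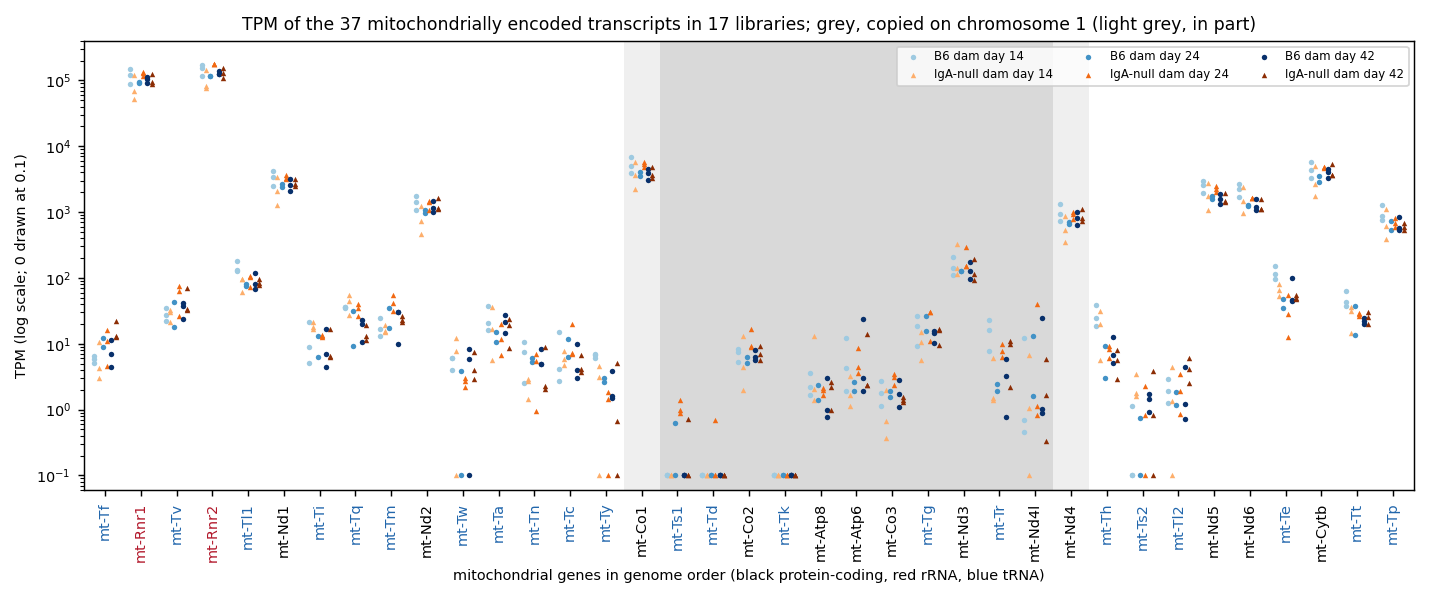
TPM (log axis) of each mitochondrial transcript in genome order, 1 point a library, coloured by dam and day, with 0 drawn at 0.1. Grey marks genes within a stretch copied on chromosome 1: mt-Co2, mt-Atp8, mt-Atp6, mt-Co3 and mt-Nd4l lie at a few TPM there, while mt-Nd2, the lowest protein-coding gene outside, lies at 465 TPM or more.

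The 13 protein-coding transcripts fell into 2 tiers that follow their place in the genome and not their respiratory complex. The 5 genes mt-Nd1, mt-Nd2, mt-Nd5 and mt-Nd6 (complex I) and mt-Cytb (complex III) had median levels of 1140.4 to 4009 TPM over the 17 libraries. The 6 genes mt-Co2, mt-Co3, mt-Atp6, mt-Atp8, mt-Nd3 and mt-Nd4l had medians of 1.13 (mt-Nd4l) to 142 TPM (mt-Nd3). These 6 lie side by side on chromosome M between 6390 and 11042, with 5 tRNA genes among them. That stretch has a near-identical copy in the nuclear genome, annotated as 7 unprocessed pseudogenes on the minus strand of chromosome 1 between 24611535 and 24616197 (GRCm38). The copies of mt-Co2, mt-Atp6, mt-Co3 and mt-Nd4l (Gm28661, Gm10925, Gm28437 and Gm10222) matched at 100% of the aligned bases, and Gm28438 matched mt-Nd3 at 99.7%, with 1 mismatch in 345 bases. Reads that cover only identical bases cannot be assigned to either place by sequence. How the authors treated such reads is not given in the sources used here, so the levels of these members are uncertain. The copies themselves were listed low, at no more than 12.8 TPM except Gm10925, which reached 55.0 TPM in IgA-null dam day 14 replicate 3. Less alike copies were annotated on chromosome 2: Gm13340 for all of mt-Co1 (97.6%), Gm13341 for mt-Co2 (95.9%) and Gm13339 for 49.1% of mt-Nd2 (96.7%). On chromosome 13, Gm4076 matched 52.3% of mt-Nd5 at 95.2%. Thus mt-Nd2 and mt-Nd5 lie outside the stretch copied on chromosome 1 but are not free of copies.

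The first bases of mt-Nd3, a complex I subunit, are shown with those of its copy because mt-Nd3 was the highest gene of the stretch and the only one wholly inside it with a mismatch to its annotated copy. The capital marks the differing base, T3C, counted from 1 at the first base of mt-Nd3, which lies at chrM:9459-9491 (plus strand) and its copy at chr1:24613087-24613119 (minus strand), both read from GENCODE M21 transcripts.
mt-Nd3: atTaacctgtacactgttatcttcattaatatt
Gm28438: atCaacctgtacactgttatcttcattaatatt
The difference is thus a single base, near the 5′ end of the gene. mt-Tg, the glycine tRNA, ends at the base before mt-Nd3 and had a median of 15.4 TPM, the highest of the 5 tRNAs inside the stretch. Whether reads over the differing base make up these levels was not tested.

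2 genes cross the ends of the stretch. mt-Co1, the catalytic subunit of complex IV (chromosome M, 5328 to 6872), has 31.3% of its length inside and a median of 4017 TPM. mt-Nd4, of complex I, has 63.6% inside and a median of 804 TPM, or 2207 TPM if only its 502 bases outside the copy are taken as its length. Within the stretch single libraries stood out in mt-Atp8, mt-Atp6 and mt-Nd4l, and these libraries came from different groups. mt-Atp8, a short ATP synthase subunit, was at 1.68, 2.18 and 3.61 TPM in pups of B6 dams and 13.2, 1.42 and 2.04 with the IgA-null dam at day 14. It was at 2.35 and 1.41 against 1.97, 2.12 and 1.66 at day 24, and at 2.98, 0.993 and 0.786 against 2.65, 0.970 and 2.21 at day 42. One library, IgA-null dam day 14 replicate 1, therefore lay apart from the other 16. For mt-Atp6, the proton channel subunit, day 14 held 1.92, 4.32 and 12.3 TPM in pups of B6 dams and 3.20, 1.13 and 1.68 with the IgA-null dam. Its day 24 levels were 1.92 and 2.65 against 8.66, 4.44 and 3.56, and its day 42 levels 23.6, 1.93 and 3.06 against 14.215, 2.33 and 2.39. The dams did not overlap in mt-Atp6 at day 24, with the IgA-null dam higher, but the difference did not pass the test. Replicate 1 was the highest of both groups at day 42. mt-Nd4l ranged from 0 to 39.7 TPM, the latter in IgA-null dam day 24 replicate 3.

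The tRNA class was mostly 1 gene. mt-Tp, the proline tRNA at the end of the gene order (chromosome M, 15356 to 15422, minus strand), took 55.8% to 74.0% of the class's TPM. mt-Tl1, a leucine tRNA next to mt-Rnr2, mt-Te, the glutamate tRNA next to mt-Nd6, and mt-Tv, the valine tRNA between the rRNAs, followed. Their sequences are printed because these 4 carry the class, with the anticodon in capitals, from GENCODE M21 (GRCm38): mt-Tl1 at chrM:2676-2750 (plus), mt-Te at chrM:14071-14139 (minus) and mt-Tv at chrM:1025-1093 (plus).
mt-Tp: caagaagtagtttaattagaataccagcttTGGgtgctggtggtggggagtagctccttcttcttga
mt-Tl1: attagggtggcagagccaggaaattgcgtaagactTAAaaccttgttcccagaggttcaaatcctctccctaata
mt-Te: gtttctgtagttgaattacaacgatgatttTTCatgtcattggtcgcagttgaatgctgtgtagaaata
mt-Tv: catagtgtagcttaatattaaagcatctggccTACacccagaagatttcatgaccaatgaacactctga
The counts behind the tRNAs were low: all 22 together had 455 to 1983 reads a library, of which mt-Tp had 269 to 1276. The other 18 each stayed at or below 63.9 TPM. Reads over the junction of neighbouring genes could be counted for either, so a tRNA's level can include uncut precursor. No strand was recorded by the kit, so reads of either strand can count for a tRNA. At the bottom, mt-Tk, the lysine tRNA, was at 0 reads in all 17 libraries, where 3 reads would have been 1.90 to 4.80 TPM, mt-Td was at 0 in 16 and mt-Ts1 in 12. These 3 lie inside the copied stretch and did not pass the filter of 1 TPM in at least 2 libraries, which left 34 members tested.

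At day 14, all 3 classes had lower medians with the IgA-null dam than with the B6 dam, but almost no single transcript passed the test. mt-Rnr2 was at 115307, 171395 and 155764 TPM in pups of B6 dams and at 82528, 76661 and 145808 with the IgA-null dam. mt-Rnr1 was at 88316, 147197 and 122318 against 69549, 51659 and 120211 TPM. In both rRNAs replicate 3 of the IgA-null dam lay within the B6 dam range and the other 2 lay below it. The log2 fold change on log2(TPM + 1) was -0.58 (SE 0.23, adjusted p = 0.112) for mt-Rnr2 and -0.63 (SE 0.27, adjusted p = 0.128) for mt-Rnr1 by limma, and neither passed. mt-Nd1 was at 2492, 4134 and 3357 against 2063, 1263 and 3370.0 TPM, and mt-Cytb at 3347, 5697 and 4382 against 2670.3, 1762 and 5016 TPM. mt-Co1 was at 3985, 6837 and 5012 against 3656, 2221 and 5846 TPM. These followed the rRNAs library by library, with IgA-null dam replicate 3 high and replicate 2 low. Median log2 fold changes were -0.53 for the 13 protein-coding transcripts, -0.60 for the rRNAs and -0.56 for the 19 tested tRNAs, while the median over all 15066 genes tested was 0.33. Scaled, these were -0.95, -1.04 and -0.97 against 0.00.

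As deposited, 1 of 34 members was called at day 14, lower with the IgA-null dam, where 0.358% of all genes were called lower. That was mt-Tr, the arginine tRNA inside the copied stretch: 16.2, 7.86 and 22.6 TPM with the B6 dam and 1.53, 1.42 and 6.11 with the IgA-null dam. The groups did not overlap, but the levels rest on 16, 6 and 23 reads against 1, 1 and 4. Its log2 fold change was -2.12 (SE 0.55, adjusted p = 0.0286), and scaled -2.35 (adjusted p = 0.0527). Scaled, 1 of 34 was called lower, against 1.02% of all genes: mt-Tt, the threonine tRNA, which was at 43.0, 37.2 and 63.9 TPM against 35.6, 14.41 and 31.0. These groups did not overlap either, and the scaled log2 fold change was -1.28 (adjusted p = 0.0392), against -0.87 as deposited (adjusted p = 0.111). The count of 1 became 4 without IgA-null dam replicate 3 and 0 without any of B6 dam replicates 1 and 3 or IgA-null dam replicates 1 and 2, and the scaled call of mt-Tt was lost with any of the 6 libraries left out.

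RNA of other kinds also differed in the IgA-null dam libraries of day 14, with levels given as deposited only and without a test. Size factors were 1.38 to 1.81 in that group and 1.15 to 1.21 with the B6 dam at day 14. Scaling would therefore lessen a higher level in the IgA-null dam group. Rn7sk, a nuclear RNA that restrains transcription elongation, had means of 31142 ± 3414 TPM in that group and 6794 ± 1151 TPM in pups of B6 dams (SD, n = 3 each). Malat1, a nuclear long non-coding RNA, had means of 876 ± 126 and 445 ± 75.2 TPM. The summed TPM of the 12 leukocyte markers was 3.35 to 6.54 against 4.83 to 13.7. The part of these in the mitochondrial levels was not tested.

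**Figure D2:**
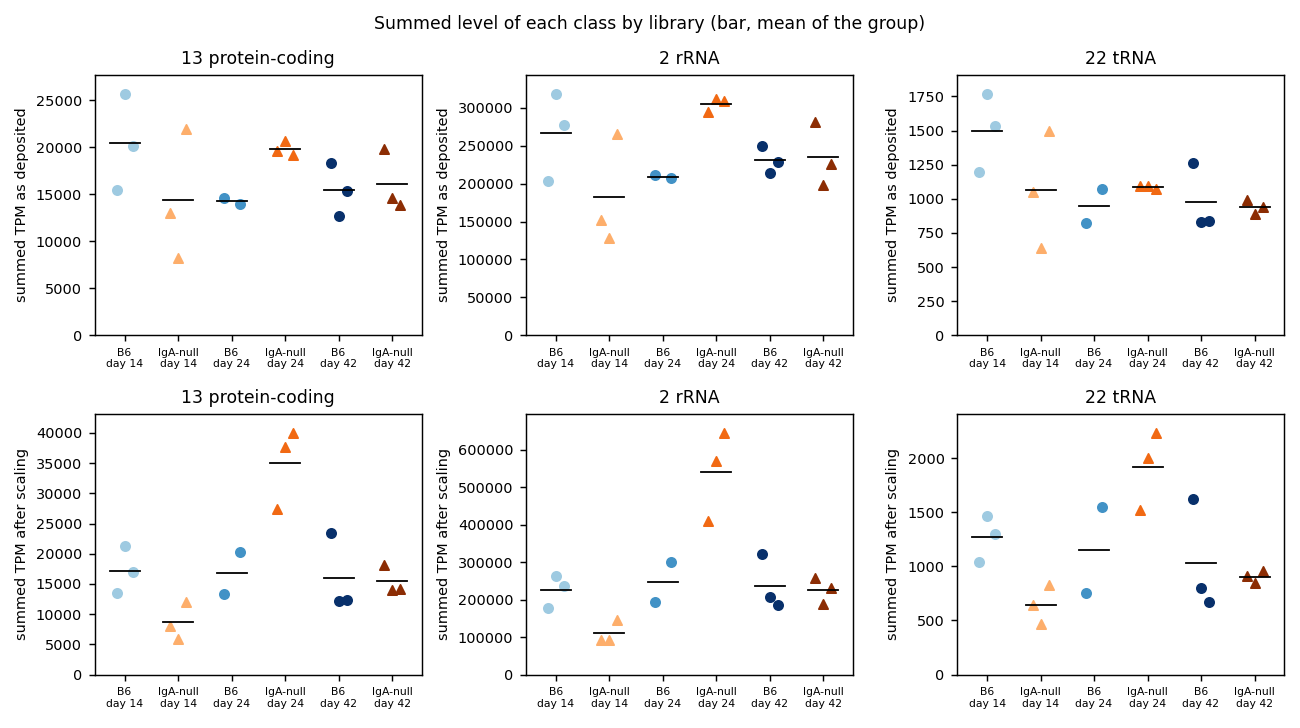
Summed TPM of each class by library, as deposited (top) and scaled (bottom), with the group mean as a bar and all axes from 0. After scaling the 3 IgA-null dam libraries of day 14 are the lowest and those of day 24 the highest of the protein-coding and rRNA sums, while the dams overlap at day 42.

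At day 24 the direction between dams was the opposite, and no member passed. mt-Rnr2 was at 118087 and 114563 TPM in pups of B6 dams and at 178583, 177791 and 179493 with the IgA-null dam. mt-Rnr1 was at 93331 and 92477 against 115526, 133760.0 and 129061 TPM. The dams did not overlap in either rRNA, with log2 fold changes of 0.62 (SE 0.26, adjusted p = 0.131) and 0.44 (SE 0.30, adjusted p = 0.312). mt-Nd1 was at 2644 and 2442 against 3259, 3638 and 3213 TPM, mt-Cytb at 3543 and 2902 against 4733, 4814 and 4804, and mt-Co1 at 3477 and 4017 against 5280.0, 5703 and 4812. The IgA-null dam libraries were again the higher ones in each. Class medians were 0.46 for protein-coding, 0.53 for rRNA and 0.26 for tRNA, against -0.38 over all genes, and scaled they were 1.05, 1.13 and 0.79 against -0.01. limma called 0 of 34 members as deposited (0.0265% of all genes; 2 members at an unadjusted p under 0.05) and 0 scaled (0% of all genes; 18 unadjusted). limma-voom on recovered reads also called 0 (18 unadjusted). Without B6 dam replicate 2, which leaves 1 library in that group, the deposited count was 2. The 2 B6 dam libraries had size factors of 1.09 and 0.690, so their own scaled rRNA sums were 193457 and 299926 TPM.

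By day 42 the dams no longer differed in any class median by more than 0.06. mt-Rnr2 was at 138777, 123524 and 124771 TPM in pups of B6 dams and at 154741, 108840.0 and 131436 with the IgA-null dam. mt-Rnr1 was at 110911, 90240.4 and 104033 against 126548, 88794 and 94712 TPM. The groups overlapped in both, with log2 fold changes of 0.02 and 0.01. Similar overlap was seen for mt-Nd1 (3138, 2102 and 2559.6 against 3135, 2628 and 2466 TPM), mt-Cytb (4448, 3248 and 4009 against 5281, 3614 and 3630.4 TPM) and mt-Co1 (4559.5, 3112 and 3908 against 4912, 3680.2 and 3307 TPM). Class medians were 0.04, 0.01 and -0.01 as deposited (all genes 0.03), and limma called 0 of 34 members (0% of all genes; 1 member at an unadjusted p under 0.05), 0 scaled (0% of all genes; 0 unadjusted) and limma-voom 0 (1 unadjusted). A miss of the threshold with 3 libraries a group does not show equal levels: for mt-Rnr2 the SE of the log2 fold change was 0.23.

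Between ages, most calls were in pups of IgA-null dams from day 14 to day 24, where both rRNAs and part of the mRNAs and tRNAs rose while most other genes fell in TPM. As deposited 11 of 34 members rose (0.863% of all genes rose) and 1 fell (82.9% of all genes fell). The 11 were both rRNAs, mt-Nd1, mt-Nd2, mt-Nd4, mt-Cytb, mt-Co2 and mt-Co3, and the tRNAs mt-Tm (methionine), mt-Tg and mt-Tr, and the 1 lower was mt-Te. mt-Rnr2 had the values given above, all 3 day 24 libraries over all 3 of day 14, and a log2 fold change of 0.88 (SE 0.23, adjusted p = 0.00275; scaled 2.36, adjusted p = 0.000711). mt-Cytb rose by 0.74 (adjusted p = 0.0422; scaled 2.22, adjusted p = 0.000725), and its groups overlapped as deposited, since day 14 replicate 3 lay above day 24. Scaled, 21 of 34 rose (8.12% of all genes), among them 10 of 13 protein-coding transcripts, both rRNAs and 9 of 19 tRNAs, and 0 fell (8.8% of all genes). Of the 24 tested members wholly outside the copied stretch, 7 were called as deposited and 14 scaled. Scaled class medians were 2.02, 2.29 and 1.57, against -0.04 over all genes, and 0.71, 0.81 and 0.15 against -1.02 as deposited.

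The size of the deposited count depended on single libraries. With day 14 replicate 1 of the IgA-null dam left out it was 3 higher and 1 lower, and with replicate 2 left out 3 higher and 4 lower, so that the balance of directions turned. Without day 24 replicates 2 and 3 it was 5 and 4 higher, with 1 lower each time. The scaled count, all higher, stayed between 17 and 22 with any 1 library left out. In scaled TPM the summed rRNA was 93525, 92765 and 146610.0 at day 14 and 409979, 570667 and 644506 at day 24, so no library of the earlier age came near the later ones. As a share of recovered reads, rRNA took 20.7%, 20.8% and 29.3% at day 14 and 48.7%, 56.7% and 59.4% at day 24, and these do not overlap either. Such a share needs no scaling factor but, like TPM, depends on the other RNA of the library. That other RNA took less of TPM in these libraries at day 24 than at day 14.

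**Figure D3:**
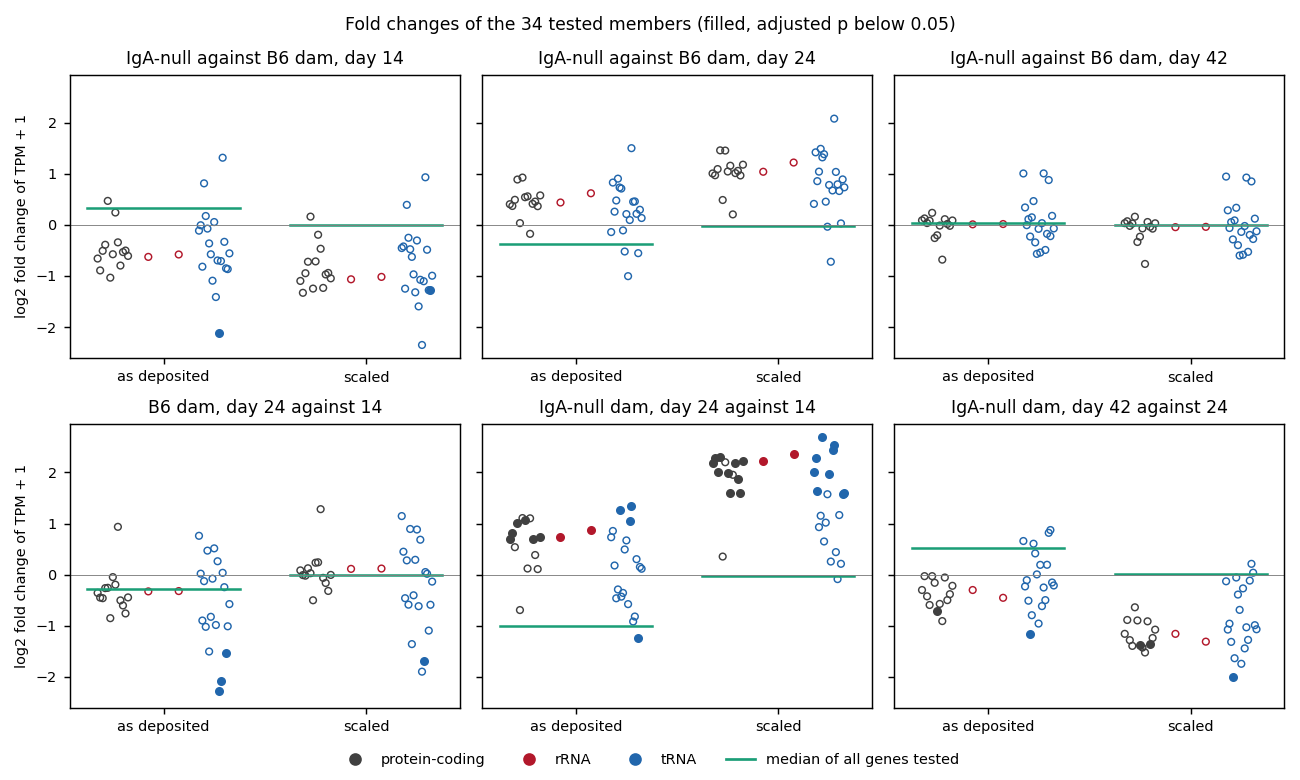
log2 fold changes of the 34 tested members by class in 6 comparisons, as deposited and scaled, filled where the adjusted p was below 0.05, with the median of all genes tested as a green line. In the IgA-null dam comparison of days 14 and 24 33 of the 34 members lie above that line in each scaling (mt-Te lies below as deposited, mt-Ts2 scaled), and at day 42 the dams' members centre on it.

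In pups of B6 dams no member was called higher over the same days, where 1.62% of all genes were as deposited and 7.54% scaled. As deposited 3 of 34 members were lower at day 24, a share near the 6.99% of all genes, and scaled 1 (6.1%), all of them tRNAs. mt-Th, the histidine tRNA, was at 18.4, 38.6 and 25.0 TPM at day 14 and 9.12 and 3.06 at day 24 (log2 fold change -2.08, SE 0.56, adjusted p = 0.0304; scaled -1.70, adjusted p = 0.0468). mt-Te was at 96.5, 114 and 153 against 34.8 and 47.0 TPM (-1.53, adjusted p = 0.0452; scaled adjusted p = 0.279), and mt-Tr at the day 14 levels above against 1.93 and 2.42 (-2.28, adjusted p = 0.0315; scaled adjusted p = 0.0779). The day 24 libraries lay below day 14 in all 3, and rested on 3 to 79 reads each. The count was 0 without B6 dam day 14 replicate 3, 1 without day 14 replicate 1 or 2 or day 24 replicate 2, and scaled it was 0 without any library but day 24 replicate 1. limma-voom on recovered reads called 0 (3 at an unadjusted p under 0.05). Class medians were -0.45, -0.33 and -0.58 (all genes -0.29), and scaled -0.01, 0.11 and -0.14 (all genes 0.00).

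From day 24 to day 42 class medians were below 0 with the IgA-null dam. As deposited 2 of 34 members fell (0.863% of all genes fell), mt-Tq, the glutamine tRNA, and mt-Co3, and scaled 3 did (1.18%), these and mt-Nd5. mt-Tq was at 40.6, 26.1 and 34.8 TPM at day 24 and at 11.4, 13.2 and 19.1 at day 42 (log2 fold change -1.17, SE 0.38, adjusted p = 0.0214; scaled -2.00, adjusted p = 0.0479). The ages did not overlap. mt-Nd5, of complex I, was at 2517, 2219.8 and 2044 against 1923, 1474 and 1422 TPM, with a scaled log2 fold change of -1.36 (adjusted p = 0.0300) and -0.50 as deposited (adjusted p = 0.161). The count of members that fell as deposited was 0 without day 42 replicate 1 or 2, and 1 without day 42 replicate 3 or day 24 replicate 2. Without day 24 replicate 3 it was 0, and 1 member was called in the other direction. Scaled, 0 or 1 fell with any library left out. Scaled class medians were -1.24, -1.24 and -0.99 (all genes 0.01), and as deposited -0.38, -0.38 and -0.16 (all genes 0.53). With the B6 dam limma called 0 of 34 members between these ages as deposited (0.0199% of all genes; 0 members unadjusted) and 0 scaled (0.0265%; 0 unadjusted), and limma-voom called 0 (0 unadjusted). The comparisons within a dam share their day 24 libraries, so their values are not independent.

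The test of the dam effect itself between ages, a moderated F test over days 14, 24 and 42, called 1 of 34 members as deposited (1.75% of all genes), mt-Tr (adjusted p = 0.0466), and 0 scaled (0% of all genes; 16 members at an unadjusted p under 0.05; limma-voom 0, with 16 unadjusted). Lower with the IgA-null dam at day 14 and higher at day 24, with no overlap at either age, was the pattern of 1 member as deposited (mt-Tr), against 0.0265% of all genes, and of 12 members after scaling, against 0.544%. The 12 were both rRNAs, mt-Nd1, mt-Nd2, mt-Co1, mt-Nd4, mt-Nd5, mt-Nd6, mt-Cytb, mt-Tr, mt-Tt and mt-Tp. They share the size factors of each library, so they are not 12 separate results. With the IgA-null dam these factors were 1.38 to 1.81 at day 14 and 0.479 to 0.717 at day 24. The part of the size factors in this pattern was not tested. The smallest scaled adjusted p of the F test among all members was 0.0925.

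Ratios between members of 1 library do not depend on the scaling. Some separated the ages and others did not: the ratio of mt-Rnr2 to mt-Rnr1 was 1.16 to 1.48 at day 14, 1.24 to 1.55 at day 24 and 1.20 to 1.39 at day 42. mt-Nd6, a complex I subunit and the protein-coding gene of the light strand, was at 12.2%, 11.6% and 12.4% of the summed TPM of the other 12 at day 14 with the B6 dam and 12.8%, 13.3% and 12.5% with the IgA-null dam. At day 24 it was at 9.59% and 9.89% against 9.13%, 8.55% and 9.33%, and at day 42 at 9.36%, 9.46% and 8.43% against 8.55%, 8.38% and 8.68%. All 6 libraries of day 14 lay above all 11 later ones, with either dam, and no test was made of these ratios. The kit recorded no strand, so reads from either strand can count for mt-Nd6, and RNA of the light strand was not measured apart. The level of mt-Nd6 itself was 1676, 2666 and 2213 against 1484, 966 and 2426 TPM at day 14. It was 1276 and 1257 against 1641, 1623 and 1633 TPM at day 24, and 1564, 1091 and 1191 against 1558, 1132 and 1109.5 TPM at day 42. It passed in no comparison as deposited, and scaled it rose with the IgA-null dam from day 14 to day 24 (log2 fold change 1.59, adjusted p = 0.00529), less than its neighbour mt-Cytb at 2.22.

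The same order held for mt-Nd5 against mt-Cytb, 2 genes on either side of mt-Nd6. The ratio was 0.529 to 0.650 at day 14, 0.425 to 0.535 at day 24 and 0.364 to 0.418 at day 42. Ages 14 and 42 did not overlap, and day 24 overlapped day 14 but not day 42. Among tRNAs, the 7 light-strand genes without mt-Tp summed to 0.588 to 0.675 of the 14 heavy-strand genes at day 14, 0.313 to 0.488 at day 24 and 0.315 to 0.618 at day 42. Day 14 thus lay above day 24, and B6 dam day 42 replicate 1 lay within the day 14 range. Strand here is that of the gene, and reads of either strand can count in both sums. mt-Te is one of the 7: with the IgA-null dam it was at 79.7, 53.2 and 66.3 TPM at day 14 and 12.6, 28.6 and 54.8 at day 24, a log2 fold change of -1.24 (SE 0.40, adjusted p = 0.00994) but 0.21 scaled (adjusted p = 0.822). At day 42 mt-Te was at 98.2, 47.0 and 44.9 TPM in pups of B6 dams and 47.8, 49.5 and 55.0 with the IgA-null dam.

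**Figure D4:**
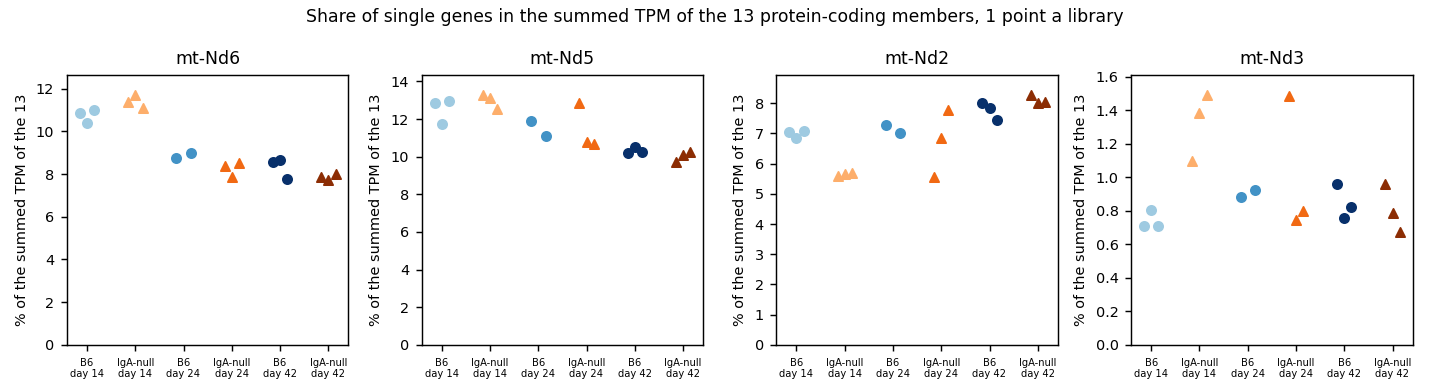
Share of mt-Nd6, mt-Nd5, mt-Nd2 and mt-Nd3 in the summed TPM of the 13 protein-coding transcripts, 1 point a library, axes from 0. mt-Nd6 is highest at day 14 with both dams, and for mt-Nd2 and mt-Nd3 the 3 IgA-null dam libraries of day 14 and 1 of day 24 lie apart from the other 13.

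A different split was seen in mt-Nd2, mt-Nd4 and mt-Nd3, all of complex I. mt-Nd2 made up 5.59%, 5.64% and 5.69% of the protein-coding TPM in the IgA-null dam libraries of day 14 and 5.55% in IgA-null dam day 24 replicate 1. In the other 13 libraries it made up 6.85% to 8.28%. mt-Nd4 made up 3.97% to 4.31% in the same 4 libraries and 4.68% to 5.62% in the others. mt-Nd3, in the copied stretch, went the other way, at 1.10% to 1.49% in the 4 and 0.675% to 0.963% in the others. Thus IgA-null dam day 24 replicate 1 resembled the day 14 libraries of its dam in these 3 shares, and not the other 2 libraries of its group. In the share of mt-Nd6 it was at 8.37%, within the later ages.

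The most abundant tRNAs did not all have the direction of the class medians. mt-Tp was at 749, 1287 and 872 TPM in pups of B6 dams and 619, 388 and 1097 with the IgA-null dam at day 14. It was at 539 and 742 against 809.9, 692 and 596 at day 24, and at 827, 525 and 570.1 against 680.4, 585 and 538 at day 42. The dams overlapped at each age as deposited. The TPM ratio of mt-Tp to mt-Nd6, encoded on the same strand, was 0.365 to 0.590 over the 17 libraries, with reads of either strand counted. mt-Tl1 was at 129, 134 and 180.2 against 95.4, 60.5 and 97.0 TPM at day 14, at 80.9 and 75.0 against 73.2, 106 and 105 at day 24, and at 117, 68.9 and 81.2 against 83.6, 79.2 and 97.6 at day 42. At day 14 its dams did not overlap, and the difference did not pass the test in either scaling. mt-Tv was at 21.9, 27.1 and 34.9 against 30.1, 32.2 and 21.1 TPM at day 14, at 17.7 and 43.4 against 26.2, 64.4 and 74.5 at day 24, and at 37.8, 41.1 and 24.0 against 32.9, 33.7 and 69.4 at day 42. Its dams overlapped at every age. mt-Tt was at 37.8 and 13.5 against 29, 28.5 and 26.8 TPM at day 24 and at 24.6, 19.6 and 22.3 against 25.8, 30.3 and 20.2 at day 42, with overlap at both ages. mt-Tr was at 1.93 and 2.42 against 7.88, 6.35 and 9.98 TPM at day 24, where the dams again did not overlap but in the other direction (log2 fold change 1.50, adjusted p = 0.124), and at 3.19, 5.96 and 0.786 against 11.1, 2.18 and 9.97 at day 42.

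Nuclear genes that serve the mitochondrion had other values than the mitochondrially encoded ones. From day 14 to day 24 with the IgA-null dam, 42 of 43 nuclear respiratory chain subunits fell as deposited (median log2 fold change -0.99), where 82.9% of all genes fell. Scaled, 18 of 43 rose (8.12% of all genes) and 0 fell (8.8%), with a median of 0.46. With the B6 dam 1 rose as deposited (0.12; 1.62% of all genes rose), and scaled 19 rose (7.54%) and 0 fell (6.1%), with a median of 0.55, so that nuclear subunits had a similar scaled median with both dams while the scaled median of the 13 mitochondrial ones was 2.02 and -0.01. Cycs, cytochrome c, went from 10.2 ± 0.411 TPM (SD, n = 3) to a mean of 20.4 TPM with the B6 dam (log2 fold change 0.92, adjusted p = 0.0246; scaled 1.34, adjusted p = 0.00282). At day 14, 4 of 43 were higher with the IgA-null dam (median 0.49), a share near the 8.32% of all genes, and after scaling 0 were (median 0.06; 1.89% of all genes; 12 at an unadjusted p under 0.05, limma-voom 0). Among the 4 was Atp5j, an ATP synthase subunit, at 96.5 ± 15.9 against 45.3 ± 2.36 TPM (SD, n = 3 each; adjusted p = 0.0455, scaled 0.118). At day 24 limma called 0 of 43 between dams, with a median of -0.70 as deposited (34 at an unadjusted p under 0.05) and -0.11 scaled (7 unadjusted), and limma-voom called 0 (10 unadjusted).

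The machinery that transcribes, processes and turns over mitochondrial RNA gave few calls after scaling. Of 34 tested genes, 34 fell with the IgA-null dam from day 14 to day 24 as deposited (median -1.08), where 82.9% of all genes fell, and scaled 1 rose and 0 fell (-0.03), where 8.12% of all genes rose and 8.8% fell. The same shares of all genes stand behind the ribosomal proteins and synthetases. Polrmt, the mitochondrial RNA polymerase, went from 7.96 ± 0.870 to 2.64 ± 0.478 TPM (SD, n = 3 each; adjusted p = 5.63e-05) and had a scaled log2 fold change of -0.10 (adjusted p = 0.515). At day 14, 2 of 34 were higher with the IgA-null dam (median 0.31; scaled 1, median -0.04; 8.32% and 1.89% of all genes), Rexo2, a mitochondrial oligoribonuclease, at 5.44 ± 0.377 against 2.30 ± 0.281 TPM (adjusted p = 0.0203, scaled 0.0392), and Fastk, which binds mt-Nd6 RNA, at 6.73 ± 0.596 against 3.55 ± 0.202 TPM (SD, n = 3 each; adjusted p = 0.0132, scaled 0.128). Of 33 mitochondrial ribosomal proteins, 33 fell from day 14 to day 24 with the IgA-null dam as deposited (median -1.22) and scaled 1 rose (0.05), beside the scaled rise of both rRNAs of the same ribosome. Of 22 aminoacyl-tRNA synthetases, 21 fell as deposited (-1.02), and scaled 2 rose and 1 fell (-0.00).

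Some genes that maintain mitochondrial DNA fell from day 14 to day 24 with either dam. With the IgA-null dam 12 of 12 fell as deposited (median -1.21), where 82.9% of all genes fell, and 4 scaled (-0.25), where 8.8% did. With the B6 dam 2 of 12 fell in each scaling (-0.46 and -0.21), where 6.99% and 6.1% of all genes fell. Mgme1, an exonuclease of mitochondrial DNA replication, went from 7.53 ± 1.07 to 1.71 ± 0.260 TPM in pups of IgA-null dams (SD, n = 3 each; adjusted p = 2.17e-05, scaled 0.0116), and from 5.86 ± 0.844 TPM (SD, n = 3) to a mean of 3.19 with the B6 dam (adjusted p = 0.0490, scaled 0.0420). Polg, the mitochondrial DNA polymerase, went from 6.74 ± 1.46 TPM (SD, n = 3) to a mean of 3.25 with the B6 dam (adjusted p = 0.0436, scaled 0.0440). Of 8 regulators of mitochondrial biogenesis, 7 fell with the IgA-null dam as deposited, a share near the 82.9% of all genes. Scaled, 1 rose (8.12% of all genes) and 1 fell (8.8%). The latter was Pprc1, a coactivator related to PGC-1, from 11.6 ± 1.68 to 2.33 ± 0.433 TPM (SD, n = 3 each; scaled adjusted p = 0.0494). At day 14, Ppargc1b, another such coactivator, was higher with the IgA-null dam at 16.6 ± 1.41 against 8.21 ± 0.789 TPM (SD, n = 3 each; adjusted p = 0.0347, scaled 0.116). Of all genes 8.32% were called higher there as deposited and 1.89% scaled. At day 24 limma called 0 genes of these 6 lists between dams in either scaling (2 to 34 a list at an unadjusted p under 0.05 as deposited, 0 to 7 scaled), and limma-voom called 0 (0 to 10 unadjusted). At day 42 each of these counts was 0.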

How the data were processed

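Sorted epithelial cells were profiled by RNA-seq (SMART-seq v4 and Nextera XT, an unstranded kit, per the labels' protocols), from cells frozen and thawed after all groups had been collected. TPM values per gene were made by the authors before deposit, and the submitters' processing notes name mm10, Bowtie2, Subread and DESeq2 without versions or roles. How reads that match several places were counted is not given in the sources used here. From the deposited TPM table, genes at 1 TPM or more in at least 2 libraries were kept (15066), and limma 3.58.1 (R 4.3.3, moderated tests with a mean trend, Benjamini-Hochberg adjustment over all genes, threshold 0.05) was fitted to log2(TPM + 1) in 1 model over all 17 libraries. Fold changes are on that scale and understate the change of low genes. Scaled values divide TPM by median-of-ratios size factors over 13180 genes above 0 in every library, centred on no change of the typical gene. Whole reads were recovered from TPM and gene lengths: 93.64% of the non-zero values were whole to within 0.01 reads or 0.0001 of the value, as did all 37 members in every library. Those reads gave the depth and a limma-voom fit. Low counts set the precision of the tRNAs, and floors cover counting error only. Copies of members were sought among GENCODE M21 transcripts (GRCm38) with BLAST+ 2.17.0 at 95% identity over 200 bases or more. Tables were handled with Python 3.11.15 and pandas 2.3.3, and the fitting step was tested on simulated data. Members and gene lists were chosen with earlier results of these data known. Values in every library are given for both rRNAs, 6 chosen protein-coding transcripts, the tRNAs called between dams and the 4 most abundant tRNAs, and for called members of the lists the 3 smallest p-values were eligible to be named.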

Additional observations from a re-analysis of the deposited data

Results flagged for a closer look

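The dam effect on mt-Tr differed between ages by the moderated F test of limma (adjusted p = 0.0466 as deposited, 0.111 scaled). Between days 14 and 24 its 2 log2 fold changes between dams differed by 3.62, with every library of the IgA-null dam below those of the B6 dam at day 14 and above them at day 24. Equally, its changes from day 14 to day 24 went in opposite directions with the B6 dam and the IgA-null dam, without overlap, and differed by 3.62. These are the same 4 groups read in 2 ways, and the levels rest on 1 to 23 reads a library within the copied stretch.

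From day 24 to day 42, mt-Rnr2 moved in opposite directions with the B6 dam, where every later library was higher, and with the IgA-null dam, where every later library was lower, and the log2 fold changes differed by -0.60. This held only as deposited: scaled, 0 members had opposite directions without overlap here. That difference was not tested by itself, and the F test over the 3 ages gave an adjusted p of 0.0796 as deposited and 0.191 scaled. No group held 4 or more libraries, so single libraries were not tested for standing apart.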

How the results depend on the processing

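Numbers of members called are given here against those of the deposited fit, and the cause of each shift was not tested. Shares of all genes called are given above for the deposited and scaled fits only. Under the other alternatives a larger or smaller number therefore need not be particular to the members. For the dams at day 14 (1 as deposited) the number was 5 relative to all other RNA, 0 with a pseudocount of 0.1, 2 with 5, 0 with no filter, 4 fitting only the compared groups (3 lower and 1 higher), 4 with limma-voom, and 0 to 4 with 1 library left out. At day 24 (0) it was 0 to 2 with 1 library left out and 0 otherwise. From day 14 to day 24 with the B6 dam (3) it was 1 scaled, 1 relative to other RNA, 0 with no filter, 0 with only the compared groups, 0 with limma-voom, and 0 to 2 with 1 library left out. With the IgA-null dam (12, of which 11 higher) it was 21 scaled, 21 relative to other RNA and 20 with limma-voom, all higher. It was 7 with a pseudocount of 0.1 (6 higher), 4 with no filter (3 higher), 7 with only the compared groups (5 higher), and 4 to 15 with 1 library left out (3 to 14 higher; without day 14 replicate 2, 3 were higher and 4 lower). From day 24 to day 42 with the IgA-null dam (2) it was 5 relative to other RNA, 1 with a pseudocount of 0.1, 1 with no filter, 4 with limma-voom, and 0 to 2 with 1 library left out (1 higher and 0 lower without day 24 replicate 3). For the dam effect between ages (1) it was 0 scaled, 0 relative to other RNA, 0 with a pseudocount of 0.1, 0 with no filter, 0 with limma-voom and 0 to 2 with 1 library left out. At day 42, and from day 24 to day 42 with the B6 dam, it was 0 under every alternative run. Leaving out a B6 dam library of day 24 leaves 1, assumed to vary like the other groups.

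Deviations of same-numbered libraries from their group means correlated at r = -0.649 to 0.261 (18 pairs, 3 over 0.1). In groups of 2 or 3 libraries the deviations depend on each other, so these values cannot exclude that the numbers pair the libraries. With the replicate block the numbers were 1 and 0 for the dams at days 14 and 24, 0 and 10 from day 14 to day 24 with the B6 and the IgA-null dam, 2 from day 24 to day 42 with the IgA-null dam, and 0 for the effect between ages. Scaled with the replicate block they were 0 and 0, 0 and 20, 1, and 0.

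Depth limits the tRNAs most, at 455 to 1983 reads a library for all 22. Groups of 2 or 3 libraries limit every comparison, members in the copied stretch have uncertain levels, and TPM states each class relative to all other RNA of a library.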
